A study of Homo sapiens with 20 samples.

Results

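The regions described here are the HIF1A peaks that were called without hypoxia in A549, a lung cancer cell line, set against those of 3 other cancer lines: HCT116 and RKO, both colorectal, and H460, also from lung. Members were taken directly from the normoxia peak lists. The A549 list held 526 peaks of the 4032 in the 4 normoxia lists, and of 26484 in all 8 lists of the series. HCT116 had 287 normoxia peaks, RKO had 2092 and H460 had 1127. A peak was counted as recurring when it overlapped a peak of another list by at least 1 bp.

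Chromatin from the 4 unmodified parental lines was immunoprecipitated with an antibody to HIF1A after 24 h in normoxia or in 1% O2, with 2 replicates per group, which makes 16 ChIP libraries beside 1 input library per line. No knockout, transgene or drug was used in any group. A549 and RKO cells grew in DMEM, HCT116 cells in McCoy's 5A and H460 cells in RPMI, and lysates were sonicated for 30 cycles (A549), 25 (HCT116 and RKO) or 20 (H460). Each condition of each line was 1 list, called on merged replicates, so the values have no replicate error. The intervals given for shares, medians and ratios are 95% intervals for counting error only, and exact permutation of 1 line against 3 cannot give a p below 0.25, so no p is given. For A549, the line, its sonication and its own peak-calling threshold cannot be told apart, nor can its medium against HCT116 and H460. The lists hold no expression values, so the line labels could not be checked against marker genes.

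HIF1A is the oxygen-regulated subunit of the HIF-1 transcription factor. When oxygen is present, prolyl hydroxylases such as EGLN1 modify it, the VHL complex recognises it and the proteasome removes it, so cells in normoxia usually hold little. When oxygen is low it accumulates, pairs with ARNT and binds hypoxia response elements (HREs), whose core reads ACGTG or GCGTG, at genes for glycolysis, mitophagy, pH control and oxygen sensing itself.

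The sequences that carry the comparison are printed from the GRCh37 genome. The first set shows A549 normoxia peaks that were strong, that recurred between normoxia lists or that lay at a target gene. Each line is centred on an HRE core, on the strand that reads it forward, and every core is in capitals (a core on the opposite strand reads CACGT or CACGC).
NARF (chr17:80416064-80416092, plus strand): tccgccgagcctACGTGacacgacgtcaa
FAM174B (chr15:93352374-93352474, plus strand): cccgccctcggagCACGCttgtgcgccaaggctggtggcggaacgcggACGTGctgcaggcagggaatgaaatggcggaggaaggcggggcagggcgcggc
ANKRD37 (chr4:186317665-186317693, minus strand): gtaagtcagtggGCGTGagaggactggag
PNRC1 (chr6:89791512-89791540, plus strand): tcagcgcgcgctACGTGcccggcgctccg
GPI (chr19:34850232-34850260, plus strand): cgtccatcccagACGTGcggacccgggtg
PGAM1 (chr10:99185766-99185794, plus strand): ctccGCGTGcttACGTGcgctccgtgact
LDHA (chr11:18416025-18416053, minus strand): gggggccggcggACGTGcgggaacccacg
ALDOA (chr16:30076835-30076935, minus strand): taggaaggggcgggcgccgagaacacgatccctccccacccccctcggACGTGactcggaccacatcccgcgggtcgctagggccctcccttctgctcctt
EGLN1 (chr1:231558030-231558058, minus strand): gggccgtggtgtACGTGcagagcgcgcag
SLC16A3 (chr17:80188949-80189049, minus strand): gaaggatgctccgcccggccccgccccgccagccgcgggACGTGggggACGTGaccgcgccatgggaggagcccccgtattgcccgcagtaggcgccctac
VGLL4 (chr3:11684053-11684153, minus strand): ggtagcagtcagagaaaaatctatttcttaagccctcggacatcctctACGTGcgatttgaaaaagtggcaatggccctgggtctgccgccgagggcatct

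NARF, GPI, PGAM1, LDHA and EGLN1 all carry the ACGTG form in the stretch shown, and SLC16A3 carries it in 2 copies within the same 101 bases. ANKRD37 carries the GCGTG form there. The printed set is a selection of peaks with a core. Left out were peaks at ENO1, PKM and BNIP3, centred on GCGTG, and others centred on ACGTG, such as CA9 and KDM3A. The recurring peaks at IGBP1C and IER3-AS1, which held no core in A549, were also left out. The second set shows strong A549 peaks beyond the 3′ ends of genes that held no core, for contrast. The strongest A549 peaks past a 3′ end, a pair beyond VMP1, each held a core, as did 19 of 58 in that position. The stretches past ID3 and TNS4, taken from the centre of the peak, hold no core and so no capitals.
past ID3 (chr1:23883089-23883184, plus strand): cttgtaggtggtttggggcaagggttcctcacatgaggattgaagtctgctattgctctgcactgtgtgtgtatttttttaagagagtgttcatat
past TNS4 (chr17:38629028-38629123, plus strand): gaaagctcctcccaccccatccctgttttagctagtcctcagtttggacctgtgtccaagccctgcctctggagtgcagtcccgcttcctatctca

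A549 normoxia peaks reached higher tag counts than those of the other lines. The normalized tag count (ChIP tags under a peak, scaled to a library of 10 M tags, where M is 1000000) had a median of 4.36 (4.12 to 4.36) in A549, 3.62 (3.47 to 3.62) in HCT116, 3.77 in RKO and 3.0 (3.0 to 3.19) in H460. The upper tail differed more than the median. In A549, 74 peaks (14.1%) had a normalized tag count of at least 10, against 5 (1.74%) in HCT116, 20 (0.956%) in RKO and 6 (0.532%) in H460. The strongest peak had a normalized tag count of 85.8 in A549, compared with 37.5 in HCT116, 62.5 in RKO and 24.4 in H460. A549 therefore had the most peaks at that level from the second shortest list and the smallest library, since the merged normoxia libraries held 41.2 M tags for A549, 69.2 M for HCT116, 45.1 M for RKO and 53.3 M for H460. Peaks were 144 bp wide in A549 against 190 in HCT116, 136 in RKO and 118 in H460, and the weakest of each list rested on 12, 20, 11 and 13 tags.

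Local enrichment, the ratio of tags in a peak to those of the surrounding 10000 bp, had a median of 6.56 (6.32 to 6.80) in A549, compared with 3.86 in HCT116, 5.84 in RKO and 5.54 in H460. All lists had the same local threshold of 3. A local fold of at least 10 was found at 92 A549 peaks (17.5%), 7 HCT116 peaks (2.44%), 90 RKO peaks (4.30%) and 36 H460 peaks (3.19%). The threshold over input was not shared, being 13 for A549, 7 for HCT116, 6 for RKO and 14 for H460. With a fold over input of at least 14 asked of every list, 500 A549, 95 HCT116, 824 RKO and 1127 H460 peaks were left. The labels of the inputs conflict, since the description of the A549 input names RKO and that of the RKO input names A549, and the peak lists name each input by its own line. Values that use the input in A549 and RKO rest on the latter, and a swap of these 2 inputs was not tested.

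**Figure D1:**
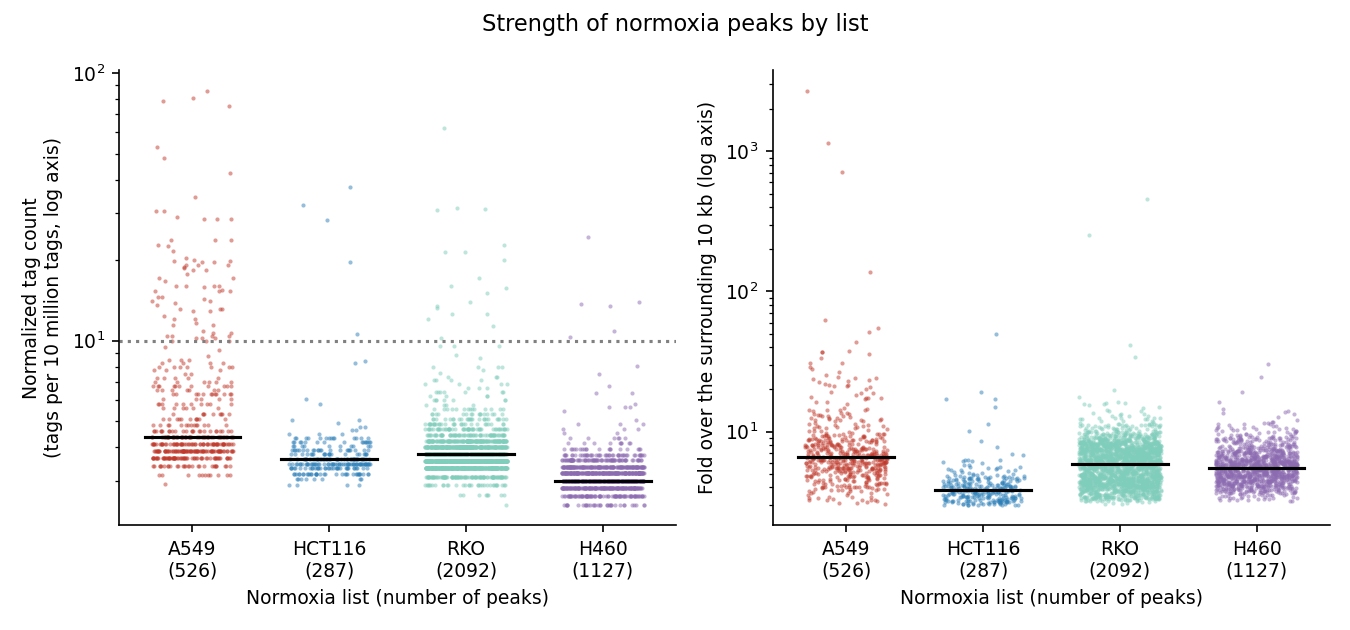
Each point is 1 normoxia peak, grouped by list (number of peaks in brackets), with black lines at the medians. Left, normalized tag count in tags per 10 M tags, with a dotted line at 10; right, fold over the surrounding 10 kb; both axes are log. A549 has 74 points above the dotted line, RKO 20, H460 6 and HCT116 5.

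A549 peaks lay closer to gene starts. A peak centre was within 2500 bp of a transcription start site (TSS) for 131 of 526 A549 peaks (24.9%, Wilson interval 21.4 to 28.8), as for 13.2% of those in HCT116, 11.6% in RKO and 9.05% in H460. A549 was higher than HCT116 by 11.7 percentage points (6.03 to 16.8), than RKO by 13.3 (9.55 to 17.4) and than H460 by 15.9 (11.9 to 20.0). These windows cover 5.72% of the genome. The share in A549 was higher for stronger peaks, from 15.3% of the weakest of 4 equal groups by normalized tag count to 43.9% of the strongest.

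The difference depended on which peaks of the other lists were kept. Where a local fold of at least 6 was required, the TSS share was 26.1% in A549, 11.7% in RKO and 8.85% in H460, but 52.9% (31.0 to 73.8) over the 17 HCT116 peaks left. Without peaks that had no input tag it was 26.4% in A549, 15.2% in HCT116 and 12.2% in RKO, but 57.1% (32.6 to 78.6) over the 14 H460 peaks left. Of the H460 normoxia peaks, 98.8% had no tag in the input (listed at the floor of the peak caller), against 24.5% in A549, 26.5% in HCT116 and 20.7% in RKO.

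By annotated feature, most A549 peaks were still intronic (46.0%) or intergenic (36.9%). UTRs held 7.41% of A549 peaks, against 3.48% in HCT116, 4.88% in RKO and 2.22% in H460, and each of the 3 differences had an interval above 0. Introns held fewer A549 peaks than those of any other list (53.3% in HCT116, 56.2% in RKO and 60.7% in H460). Coding exons held 3.61% in A549, within the range of the other lists (1.86 to 5.23%). Noncoding exons held 6.08% in A549 and 5.23% in HCT116, with an interval for the difference that included 0 (-2.80 to 3.99 points).

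An HRE core within the central 200 bp was found in 42.8% of A549 peaks (38.6 to 47.0) with both strands searched, compared with 35.9% in HCT116, 17.5% in RKO and 14.9% in H460. The A549 share exceeded those of RKO and H460 by 25.2 points (20.7 to 29.8) and 27.9 points (23.2 to 32.6). Against HCT116 the interval of the difference included 0 (6.89 points, -0.17 to 13.7), and when every list had to reach 14-fold over input the shares were 41% in A549 and 40% over the 95 HCT116 peaks left. The order of the lists also turned where few peaks were left. With a local fold of at least 6 the core was in 52.2% of A549 peaks and 58.8% (36.0 to 78.4) of the 17 in HCT116, against 18.2% in RKO and 18.9% in H460. Without peaks that had no input tag it was in 47.6% of A549, 36.0% of HCT116 and 18.4% of RKO peaks, but in 57.1% (32.6 to 78.6) of the 14 left in H460. In windows of the same length 2000 bp away, the share was 23.5% for A549, 18.8% for HCT116, 18.7% for RKO and 16.5% for H460, so peaks of RKO and H460 held a core no more often than their flanks. Of all 38865 annotated TSS windows of 200 bp, 36.6% held one.

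The 2 forms of the core differed. ACGTG was present in 31.4% of A549 peaks but only 15.0% in HCT116, 8.56% in RKO and 9.49% in H460, and A549 exceeded HCT116 by 16.4 points (10.4 to 21.9). GCGTG was present in 21.3% of A549, 25.4% of HCT116, 10.0% of RKO and 6.30% of H460 peaks. For this form the interval of the difference from HCT116 included 0 (-10.4 to 1.83 points), while A549 exceeded RKO by 11.3 points (7.70 to 15.1) and H460 by 15.0 (11.4 to 18.9). A control core differing in 1 base (ACGAG or GCGAG) was chosen after the data were seen. It was present in 24.0% of A549, 27.5% of HCT116, 13.3% of RKO and 8.61% of H460 peaks. Its share in the A549 flanks was 17.6%. For this control A549 exceeded RKO by 10.7 points (6.89 to 14.7) and H460 by 15.3 (11.5 to 19.5). The GCGTG differences from RKO and H460 were thus close to those of a control that is no HRE core. Against HCT116 the control interval included 0 (-10.01 to 2.60 points). Base composition differed between the lists, with a median GC content of 48% in A549 against 54.5% in HCT116, 41% in RKO and 36% in H460. Its part in the motif shares was not tested.

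Among peaks near a TSS, 94 of 131 in A549 held an HRE core (71.8%), against 57.9% in HCT116, 38.8% in RKO and 31.4% in H460. Away from a TSS the A549 share was 33.2% (28.70 to 37.95). It was 32.5% (27.01 to 38.58) in HCT116, 14.8% in RKO and 13.3% in H460. Like TSS proximity, the core became more frequent with strength in A549, from 29.0% of the weakest of those 4 groups to 65.9% of the strongest. The core share of the weakest and strongest groups also rose in HCT116 (31.0 to 41.7%), RKO (16.4 to 21.8%) and H460 (11.7 to 19.5%). The letters TGANTCA, which match the AP-1 site bound by FOS and JUN proteins, were in 12.4% of A549 peaks and 6.84% of their flanks, against 5.23% of HCT116, 8.17% of RKO and 6.57% of H460 peaks. The 3 differences from A549 had intervals above 0 (7.13, 4.18 and 5.79 points). The antioxidant-response letters TGACNNNGC were in 11.2% of A549 peaks and 6.18% of their flanks. A549 exceeded RKO by 4.86 points (2.19 to 8.00) and H460 by 5.27 (2.41 to 8.50), and the difference from HCT116 (7.32%) had an interval that included 0 (-0.45 to 7.78 points). For other letters searched, A549 did not lead. GGGCGG was in 14.8% of A549 peaks and 5.61% of their flanks, against 18.5% of HCT116, 5.54% of RKO and 2.66% of H460 peaks. CACGTG was in 4.37% of A549, 4.53% of HCT116, 2.44% of RKO and 1.86% of H460 peaks.

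Many A549 normoxia peaks were called again in hypoxia. The hypoxia list of the same line held 175 of 526 A549 peaks (33.3%), 12.9% of HCT116, 4.68% of RKO and 3.99% of H460 peaks. Because a line's normoxia and hypoxia lists were called against the same input, the hypoxia lists of the other lines were used as a separate readout. There, 128 A549 peaks (24.3%, 20.9 to 28.2) overlapped a hypoxia peak of another line, against 25 in HCT116 (8.71%), 66 in RKO (3.15%) and 23 in H460 (2.04%). The differences were 15.6 points (10.5 to 20.3), 21.2 points (17.6 to 25.1) and 22.3 points (18.7 to 26.2). No single line supplied these overlaps, as 16.5% of A549 peaks were in the HCT116 hypoxia list, 13.1% in that of RKO and 16.9% in that of H460. These shares too turned on a few peaks of a short list. With a local fold of at least 6 the A549 share was 33.5%, against 4.81% in RKO, 4.31% in H460 and 52.9% over the 17 HCT116 peaks left. Without peaks that had no input tag it was 28.5%, against 10.4% in HCT116, 3.44% in RKO and 50% (26.8 to 73.2) over the 14 H460 peaks left.

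The A549 peaks shifted step by step with the number of other lines that bound the same place in hypoxia. The 398 peaks in none of the 3 other hypoxia lists had a median normalized tag count of 4.12, and 29.9% held an HRE core. With 1 such list (54 peaks) the values were 6.30 and 66.7%, and with 2 (31 peaks) they were 7.03 and 87.1%. The 43 peaks found in all 3 had a median of 13.1, every one of them held a core and 34 lay near a TSS. At the other end, 329 A549 peaks (62.5%) were in no hypoxia list at all, their own included, and 22.5% of these held a core. The flanking share of 23.5% is for all 526 A549 peaks, and the flanks of these 329 were not examined separately.

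At the 140 A549 peaks with a core that were also in the A549 hypoxia list, the tag count was higher in hypoxia at 136, with a median log2 ratio of hypoxia over normoxia of 1.50 (1.27 to 1.70). At the 35 without a core it was higher at 25, with a median of 0.31 (0.09 to 0.61). These ratios cover only peaks called in both lists. The other 85 A549 peaks with a core overlapped no A549 hypoxia peak and so had no ratio.

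**Figure D2:**
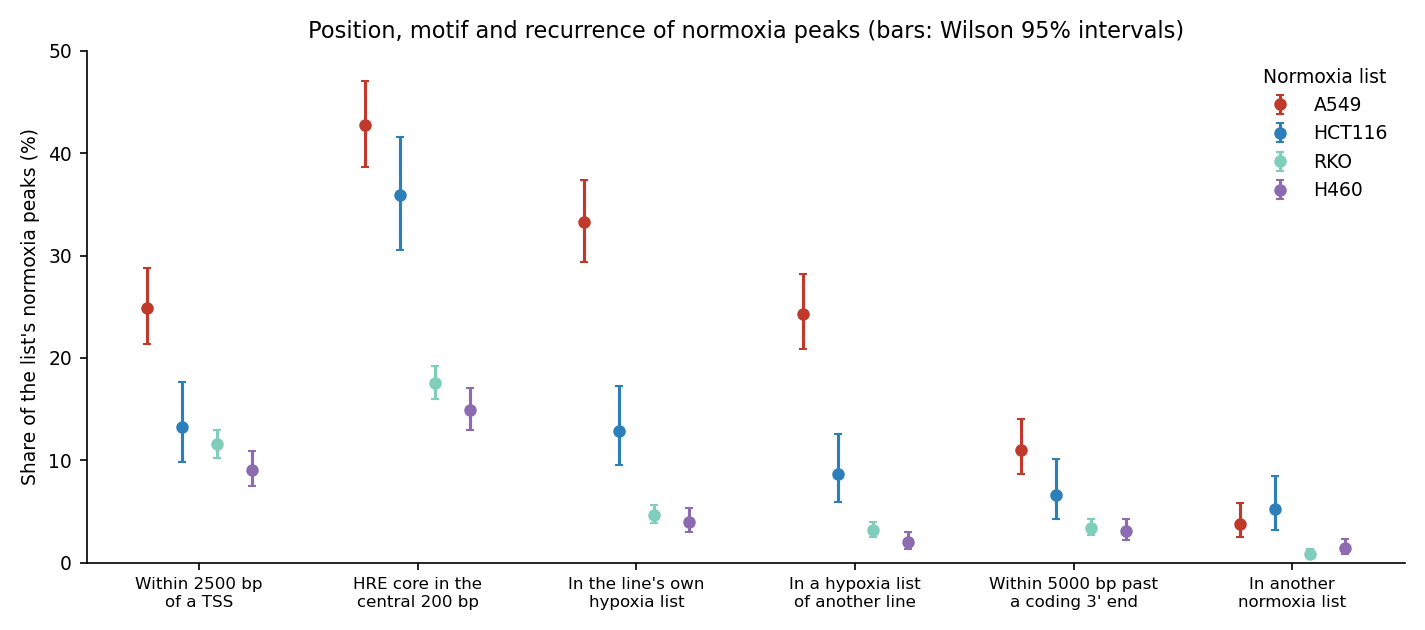
Share of each list's normoxia peaks, in percent, for 6 measures; points are lists (A549, HCT116, RKO, H460 from left to right) and bars are Wilson 95% intervals. A549 is highest for TSS proximity (24.9%), HRE core (42.8%), its own hypoxia list (33.3%), another line's hypoxia list (24.3%) and gene 3′ ends (11.0%), and second to HCT116 for recurrence in another normoxia list (3.80 against 5.23%).

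Hardly any normoxia peak recurred between lines. After overlapping peaks were joined, the 4 lists made up 3994 regions, of which 3964 were in 1 list, 24 in 2, 4 in 3 and 2 in all 4. The 30 regions in at least 2 lists were 0.751% of the total. Recurrence was seen for 3.80% of A549 peaks, 5.23% of HCT116, 0.813% of RKO and 1.42% of H460 peaks, and A549 and HCT116 did not differ beyond counting error (-1.42 points, -4.90 to 1.43).

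A549 took part in 20 of the 30 recurring regions, including all 6 found in 3 or more lists. The commonest pairing was A549 with H460 only (8 regions), followed by HCT116 with RKO only (5) and A549 with RKO only (4). An HRE core was present in at least 1 peak of 17 of the 20 regions with A549 and of 6 of the 10 without it. A hypoxia list held 27 of all 30 regions and 19 of the 20 with A549, and all 4 hypoxia lists held 10 of these 20. Counted by the A549 peak alone, 18 of the 20 recurring peaks were in a hypoxia list, against 37.5% of all A549 peaks. The recurring A549 peaks were also stronger, with a median normalized tag count of 18.05 against 4.36 over the whole A549 list. The 10 regions without A549 included NFE2L2, which encodes the antioxidant regulator NRF2 (4.34 in HCT116 and 5.99 in RKO), UNC5B, a netrin receptor gene, and DENND1A, whose A549 hypoxia peak had a normalized tag count of 55.2.

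The 2 regions called in every normoxia list were in FAM174B and ANKRD37. The FAM174B region (chr15:93352359-93352558, GRCh37, intron, 670 bp past the FAM174B TSS) had normalized tag counts of 75.4 in A549, compared with 32.1 in HCT116, 30.8 in RKO and 24.4 in H460. The same lists in hypoxia had 130.3, 70.4, 71.3 and 91.2 there. A549 stood above the others in both conditions, and the log2 ratio in normoxia was 1.23 (0.98 to 1.49) over HCT116, 1.29 (1.00 to 1.59) over RKO and 1.63 (1.33 to 1.93) over H460.

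ANKRD37, a small ankyrin-repeat gene known as a HIF1A target, behaved differently. Its intronic region (chr4:186317539-186317729) had normalized tag counts of 19.6 in A549 against 19.7 in HCT116, 15.7 in RKO and 13.5 in H460. A549 and HCT116 could not be separated (log2 ratio -0.42 to 0.41), nor could A549 and RKO (-0.16 to 0.80). In hypoxia A549 had the lowest value of the 4 lines, 47.9 against 62.6 to 63.1.

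Of the regions in 3 lists, NARF, a gene for a prelamin-binding protein, held the strongest A549 peak. Its UTR region 22 bp past the TSS (chr17:80416006-80416198) had normalized tag counts of 85.8 in A549, 28.2 in HCT116 and 21.5 in RKO, with log2 ratios of 1.61 (1.35 to 1.87) and 2.00 (1.67 to 2.34). H460 had no normoxia peak there, though its hypoxia peak reached 87.3. PNRC1, a nuclear receptor coactivator gene, had 15.8 in A549, 8.24 in HCT116 and 5.63 in H460, all lower than the hypoxia values of 51.5, 42.9 and 54.6.

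IER3-AS1 departed from this pattern. This region beside the immediate early gene IER3 (chr6:30710478-30710767, noncoding exon) had 20.1 in A549, 37.5 in HCT116 and 5.99 in RKO, so that A549 was below HCT116 (log2 ratio -0.90, -1.27 to -0.53). The A549 peak held no HRE core and was not called in A549 hypoxia. It did not overlap the RKO peak and was joined to it through that of HCT116. The CLASP1 intron was the weakest of the 6, with 9.94 in A549, 4.77 in HCT116 and 6.43 in RKO, and was not in the A549 hypoxia list either.

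SLC16A3 had the widest gap among the regions in 2 lists. This gene encodes the lactate exporter MCT4, and the peak lay in a noncoding exon 13181 bp past the TSS used here. Its normalized tag count was 42.4 in A549 and 6.38 in H460, a log2 ratio of 2.73 (2.20 to 3.31), and all 4 hypoxia lists held it (208.5 in A549, compared with 61.1 in HCT116, 55.5 in RKO and 118.7 in H460). IGBP1C was nearly as wide apart, with 30.6 in A549 and 4.66 in RKO, but held no core and was not in the A549 hypoxia list. KDM3A, a histone demethylase gene, had 13.6 in A549 and 5.07 in H460. ENO1, the glycolytic enolase gene, had 12.9 and 3.57. PPM1H, a phosphatase gene, ran the other way, with 8.49 in A549 and 13.7 in H460.

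Over the 27 pairings of an A549 peak with an overlapping normoxia peak of another line, the count was higher in A549 in 24, and 22 had an interval above 0. IER3-AS1 against HCT116 and PPM1H against H460 were the 2 with an interval below 0. The log2 ratio ranged from -0.90 to 2.73, with a median of 1.29. Per bp of peak width, which differed between lists, A549 was higher in 25 pairings and the median was 1.34. These ratios compare merged libraries, and pairings in the same region share the A549 peak. The A549 and RKO peaks of the region named SPRY3, on chromosome Y, had no input tag and no core. Their local folds were 713.8 in A549 and 459.4 in RKO. Their tag counts were lower in hypoxia, 6.23 against 17.7 in A549 and 3.29 against 4.21 in RKO.

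**Figure D3:**
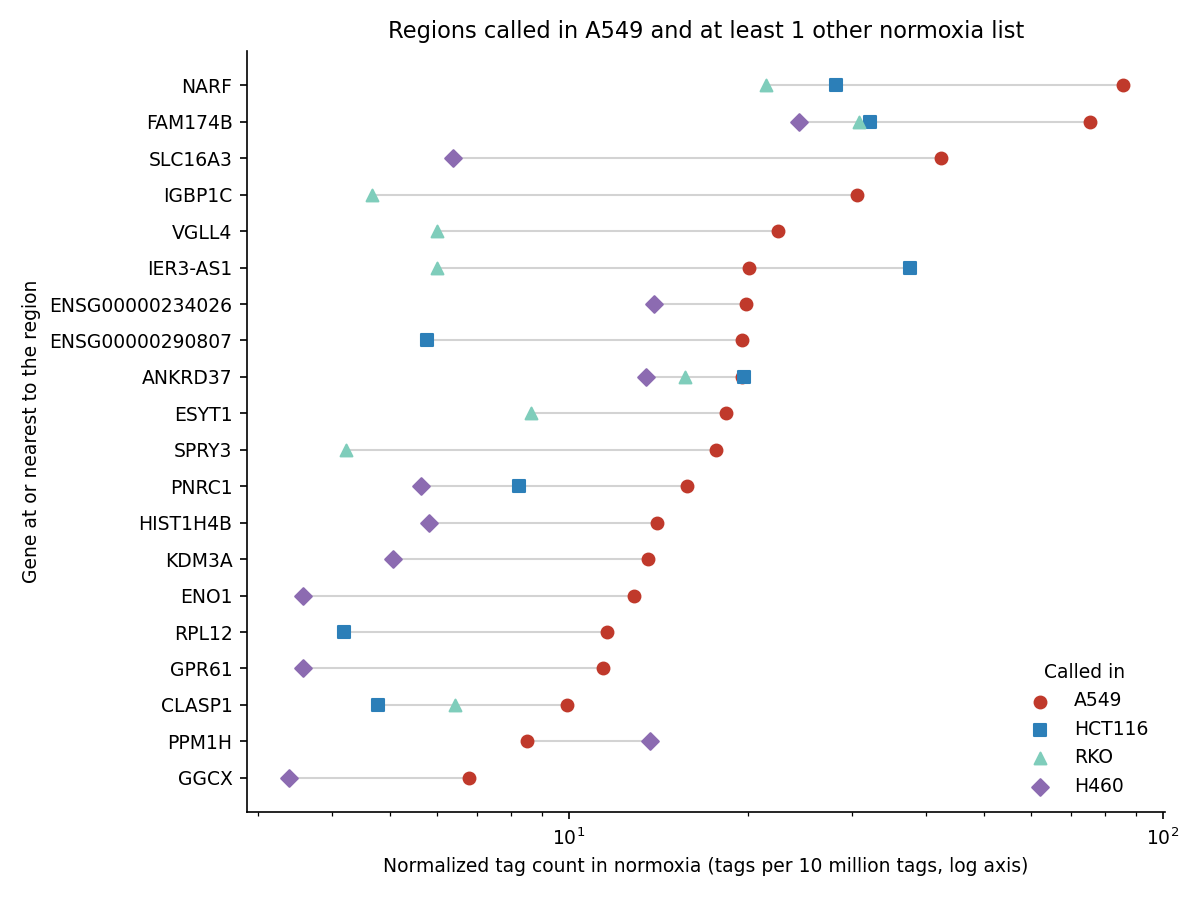
Normalized tag count in normoxia (tags per 10 M tags, log axis) for the 20 regions called in A549 and at least 1 other list, named by the gene at or nearest to them and ordered by the A549 value; the SPRY3 region is intergenic and far from that gene. A missing marker means that no peak was called. A549 (circles) is the right-most marker except at IER3-AS1 and PPM1H, and at ANKRD37, where it all but coincides with HCT116.

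The chosen target lists held 98 genes in 10 groups. A normoxia peak within 2500 bp of the TSS was found for 18 of them in A549 against 3 in HCT116, 8 in RKO and 5 in H460. Over all 38865 annotated genes the share was 0.515% in A549 (200 genes), 0.131% in HCT116 (51), 0.847% in RKO (329) and 0.334% in H460 (130). The lists were chosen with earlier results of these data known, so their share is read beside this background and not tested. In hypoxia the same lists had a peak at 45 genes in A549, compared with 40 in HCT116, 41 in RKO and 50 in H460. Over all annotated genes the A549 hypoxia list reached 5.39%, that of HCT116 6.68%, that of RKO 6.49% and that of H460 6.82%.

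Of the 18 A549 genes, 17 had a core in the peak, 17 were also in the A549 hypoxia list, 13 were in all 4 hypoxia lists and 11 were in no other normoxia list. IER3 was the exception for both the core and the hypoxia list.

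Glycolytic enzymes contributed most, with 7 of 17 genes in A549, 0 in HCT116, 2 in RKO (PKM and LDHA) and 1 in H460 (ENO1). GPI, which converts glucose 6-phosphate to fructose 6-phosphate, had an A549 normalized tag count of 48, 135 bp before the TSS. PGAM1, the phosphoglycerate mutase gene, had 28.4, at a start it shares with the divergent gene RRP12. ALDOA, the aldolase gene, had 23.8 and LDHA, which makes lactate from pyruvate, had 20.4, 42 bp from its TSS. ENO1 had 12.9, GAPDH 10.2 and PKM, the pyruvate kinase gene, 8.73. The RKO peaks near PKM (3.33) and LDHA (3.55) did not overlap those of A549, so ENO1 was the only glycolytic gene at which A549 shared a place with another line.

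The group listed as growth, mTOR and mitophagy regulators, in which ANKRD37 and NARF had also been placed, was next. It had 6 of 8 genes in A549 against 2 in HCT116, 2 in RKO and 1 in H460. Every hit of the other lists in this group was ANKRD37 or NARF. BNIP3L, a mitophagy receptor gene, had an A549 normalized tag count of 28.4. Its relative BNIP3 had 12.4, and DDIT4, an mTOR inhibitor gene, had 13.1, all without a peak near the TSS in the other normoxia lists. MXI1, a MYC antagonist gene, had the weakest (3.64) and lay just inside the window at 2484 bp. In H460 a peak 3276 bp from DDIT4 (10.3), past its 3′ end, held no core.

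The remaining groups had 1 gene each or none. EGLN1, the hydroxylase gene that marks HIF1A for removal, had an A549 normalized tag count of 14.3, 11 bp from the TSS, and was the only one of 9 oxygen-sensing genes in any normoxia list. P4HA1, a collagen prolyl hydroxylase gene, had 15.5 in A549, and KDM3A was the only one of 6 JmjC demethylase genes, in A549 and H460. CA9, a carbonic anhydrase gene often used as a hypoxia marker, had 6.79 in A549 and no normoxia peak elsewhere.

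The other groups had 0 or 1 A549 gene. In lists this short, 0 genes is also what the shares over all genes would give, so nothing is read from it. None of the 10 genes for glucose, lactate and pyruvate handling had a peak near its TSS in any normoxia list, the SLC16A3 peak lying outside the window. An A549 peak in an intron of the glucose transporter gene SLC2A3 (17.2) also lay outside it. None of the 12 NRF2 targets had one in any normoxia list, and the 7 clock and repressor genes had 1, BHLHE40 in H460 (3.19). Among 15 highly transcribed or immediate early genes, A549 had 1, IER3, while RKO had 4 (MALAT1, FTL, FOS and IER3).

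**Figure D4:**
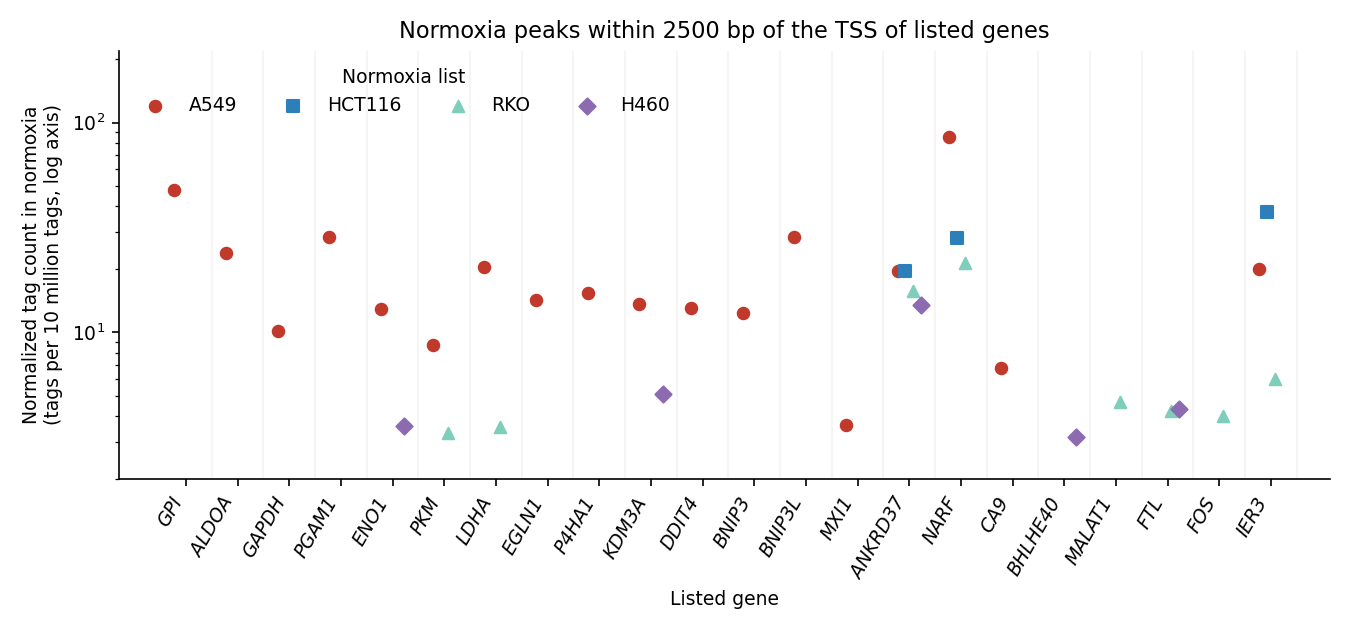
Normalized tag count in normoxia (tags per 10 M tags, log axis) of the strongest peak within 2500 bp of the TSS, for each listed gene with a peak in any normoxia list; a missing marker means that no peak was called. A549 (circles) covers 18 genes, from 3.64 at MXI1 to 85.8 at NARF, and only ANKRD37 has a marker for all 4 lists.

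Not all strong A549 peaks were of this kind. After NARF, the next strongest were a pair past the 3′ end of VMP1 and the microRNA gene MIR21, with normalized tag counts of 80.7 and 78.3. Both peaks of the pair held an HRE core. Their local folds were only 6.41 and 6.26, against 62.3 at NARF and 55.3 at FAM174B, so the surrounding 10000 bp held many tags as well. HCT116 had a peak of 10.6 and RKO one of 31.0 in the same stretch, none of them overlapping those of A549, and H460 had none in normoxia. The first A549 peak was called in A549 hypoxia (134.4). The second overlapped no hypoxia peak, but an A549 hypoxia peak of 97.3 ended where it began, so it missed the overlap rule at the edge only.

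The other 4 of the 5 strongest A549 peaks absent from every hypoxia list lay beyond ID1 (30.6) and ID3 (28.9), which encode inhibitors of DNA binding, between FTL and GYS1 (28.4), where FTL encodes ferritin light chain, and beyond TNS4 (22.8), a tensin gene. None of these 4 held an HRE core. The remaining peaks among the 15 strongest were at IGFL2-AS1 (53.1), SCIRT (34.4) and BEST1, near FTH1, the ferritin heavy chain gene (23.8). The first 2 of these held a core and the last did not.

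Within 5000 bp past the 3′ end of a coding gene, and not near a TSS, lay 58 A549 peaks (11.0%), 19 in HCT116 (6.62%), 71 in RKO (3.39%) and 35 in H460 (3.11%). This zone was chosen after the data were seen and covers 2.62% of the genome. A549 exceeded HCT116 by 4.41 points (0.17 to 8.18), RKO by 7.63 (5.08 to 10.7) and H460 by 7.92 (5.25 to 11.0). In the hypoxia lists the share was 4.90% for A549, 3.70% for HCT116, 3.15% for RKO and 2.53% for H460. Requiring a local fold of at least 6 lowered the normoxia share to 6.52% in A549, against 4.01% in RKO, 2.63% in H460 and 5.88% (1.05 to 27.0) in HCT116, where it was 1 of 17 peaks.

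The median local fold of these 58 peaks was 4.88 and their median normalized tag count 4.85. The 37 A549 peaks near a TSS without a core had nearly the same values, 4.89 and 4.85. Similar shares of both classes were in the A549 hypoxia list (20.7% past a 3′ end and 18.9% near a TSS without a core). Some of the 37, such as the peak beyond ID1, also lay past a 3′ end and were counted only as near a TSS. The 225 peaks elsewhere without a core had 6.30 and 4.12, with 10.7% in the A549 hypoxia list. For the 112 elsewhere with a core these were 7.60, 4.61 and 58.0%. The 94 peaks near a TSS with a core had a median local fold of 8.09 and a median normalized tag count of 5.94, and 71.3% of them were in that list. Of the 58, 19 held a core, 12 were in the A549 hypoxia list and 5 in that of another line. They lay past 55 genes, among them the keratin genes KRT7 and KRT8, MAT2A, DUSP1, ZFP36L1, FLNA, AKR1C1, SMAD3, GADD45B and RPL13A. Of the 50 strongest A549 peaks that were not in the A549 hypoxia list, 18 were of this class, against 13.1% of all 351 such peaks. Among the 50 strongest of the whole A549 list, 8 were.

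**Figure D5:**
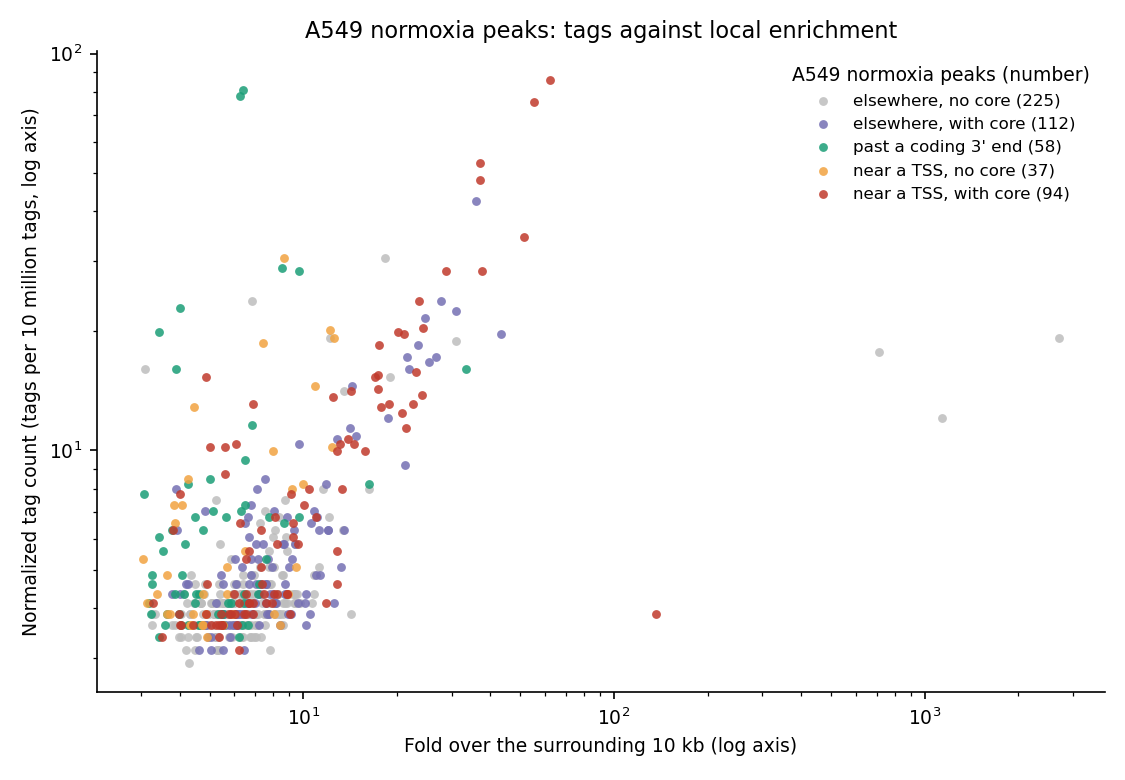
The 526 A549 normoxia peaks by fold over the surrounding 10 kb (horizontal) and normalized tag count in tags per 10 M tags (vertical), both on log axes, coloured by class. Peaks near a TSS with a core (94) run up to NARF at the top, while the pair past VMP1 sits equally high at a local fold near 6; the 3 points at the far right are intergenic peaks on chromosome Y.

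Some A549 peaks had a neighbour in another list without overlapping it. A normoxia peak of another line lay within 5000 bp of 51 A549 peaks, and for 32 of them at least 1 such neighbour did not overlap. Those neighbours were in RKO for 26 peaks, in H460 for 6 and in HCT116 for 5. Of the 32, 15 were near a TSS and 8 past a 3′ end, and 8 held a core. ZFP36L1, an mRNA decay factor gene, was one such place, with an A549 peak of 8.24 and 3 RKO peaks of 4.66 to 9.54 spread over the stretch past its end.

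The strongest peaks of the other lists overlapped those of A549 in part. FAM174B was among the 5 strongest in HCT116, RKO and H460, and ANKRD37 in HCT116 and H460. RKO was led instead by a peak at the end of FOSL1, an AP-1 subunit gene (62.5), and by one in RGS4 (31.3), a G-protein regulator gene, neither called in A549. H460 had a peak past CXCL1, a chemokine gene (10.9), that was in no A549 list.

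The lists also differed in where they lay along the genome. On chromosome 17, which makes up 2.62% of the genome, lay 8.17% of A549 peaks and 10.8% of HCT116 peaks. RKO had 531 of its 2092 peaks on chromosome 8 (25.4%, for 4.73% of the genome) and H460 had 236 of 1127 on chromosome 1 (20.9%, for 8.05%), where A549 had 5.32% and 8.37%. Of the putative peaks found before filtering, 9.49% were kept in A549, compared with 6.49% in HCT116, 32.2% in RKO and 9.82% in H460. The part of these differences in the comparison of the lists was not tested.

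The lists were also compared at equal length, an alternative chosen after the data were seen. Taking the 287 strongest peaks of each list, the length of the HCT116 list, an HRE core was present in 53.3% of A549, 35.9% of HCT116, 26.5% of RKO and 19.2% of H460 peaks. A hypoxia list of another line held 37.3%, 8.71%, 12.2% and 6.62% of them, in the same order. The TSS share, at 30.7% in A549 and 23.7% in RKO, came closest, and their intervals overlapped (25.6 to 36.2 and 19.1 to 28.9).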

How the data were processed

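HIF1A ChIP-seq peak lists of 4 lines were analysed, from 8 normoxia libraries against 4 inputs, with the hypoxia lists of the same lines for comparison. The authors aligned reads with Bowtie2 2.2.9 (SAMtools 1.3.1, Picard 1.129 and FastQC 0.11.5) and called peaks with HOMER 4.3 on GRCh37/hg19, after merging the 2 replicates. They asked for a fold over input above 13 (A549), 7 (HCT116), 6 (RKO) or 14 (H460), a local fold of 3 over 10000 bp, and a p-value and a false discovery rate of 0.001. The deposited signal is a tag count per 10 M tags (M, 1000000), and the deposited ratios are the fold over input and over the local region. Tags per peak were recomputed from that signal and the library total, and their sum equalled the total in the file headers. 

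Peak centres were annotated with GENCODE 44 mapped to GRCh37 (38865 coding and lncRNA genes). Motifs were searched on both strands of the central 200 bp. Shares have Wilson intervals, differences Newcombe intervals, medians order-statistic intervals and tag ratios exact conditional binomial intervals, computed in Python 3.11.15 (scipy 1.17.1) and tested on simulated data. Groups came from the labels' titles. For the inputs other labels disagree: the descriptions of the A549 and RKO inputs each name the other line, and all 4 inputs have HCT116 as source. The titles, cell line tags and headers of the peak lists give each input its own line and were followed. Peaks were named by rule: the 15 strongest of A549, the 5 strongest of each other list, regions in at least 3 lists, A549 peaks at listed genes and the 5 strongest A549 peaks in no hypoxia list; the others named were chosen after their values were seen. Members, gene lists and tests were chosen with earlier results of these data known. Alternatives covered thresholds, overlap, TSS distance, motif window and lists left out.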

Additional observations from a re-analysis of the deposited data

Results flagged for a closer look

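Among 33 measures compared over the 4 normoxia lists, 3 had 1 list that stood apart from the other 3 by a gap above Dixon's 95% critical value for 4 values. Chance marks about 5% of measures. For A549 the only such measure was the share of peaks between genes, 36.9%, against 32.8 to 33.3% in the other lists, and the intervals of the differences included 0. RKO kept 32.2% of its putative peaks, where the next highest list kept 9.82% and the lowest 6.49%. In H460, 98.8% of normoxia peaks had no tag in the input, against 26.5% in the next highest list, HCT116. When such peaks were left out, 14 H460 peaks remained.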

How the results depend on the processing

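Of 84 alternatives over 10 measures, 58 kept the direction and stayed within the counting error (or within 1.5 times a count), 21 moved by more than that without a change of direction and 5 reversed. No paired analysis was possible because peaks were called on merged replicates, and for the same reason no replicate could be left out. Values below set A549 against the mean of the other 3 lists. With a fold over input of at least 14 everywhere, the ratio of peak numbers was 0.733 (0.450 as deposited) and the number of recurring regions 19 (30 as deposited). Under a local fold minimum of 6, which left 17 HCT116 peaks, the TSS difference was 1.58 points (13.6 as deposited), the ratio of median tag counts 1.19 (1.26), the difference of median local folds 0.567 (1.48), the recurrence difference -11.6 points (1.32, reversed) and the difference in hypoxia peaks of another line 12.9 points (19.7). Without peaks that lack an input tag, which left 14 H460 peaks, these were -1.73 points, 0.970, 0.392, -10.3 points and 7.18 points, the TSS and recurrence differences and the ratio of tag counts being reversed. The HRE difference was then 10.4 points (20.0 as deposited) and 17 regions recurred. With the 287 strongest peaks of each list, chosen after the data were seen, the HRE difference was 26.1 points, the ratio of median tag counts 1.51, the difference of median local folds 1.97 and that in another line's hypoxia peaks 28.1 points. Without the HCT116 list the HRE difference was 26.6 points and the local fold difference 0.865. Without the RKO list the ratio of peak numbers was 0.744, that of median tag counts 1.32 and the local fold difference 1.86. Without the H460 list the ratio of median tag counts was 1.18, the recurrence difference -0.32 points (reversed) and that in another line's hypoxia peaks 15.3 points. The 2 settings that leave 17 or 14 peaks in a list rest on those few peaks. The number of listed genes with an A549 peak stayed between 15 and 21, and the median log2 tag ratio over all pairings within shared regions, overlapping or joined through a further list, between 1.25 and 1.36. The weakest peaks rest on 11 to 20 tags, so a locus without a call is not shown to be unbound.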
